A study of Mus musculus with 18 samples.

Results

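The nuclear-encoded subunits of the mitochondrial respiratory chain and ATP synthase were followed in 4T1 cells, a BALB/c mouse mammary carcinoma line that stands in for triple-negative breast cancer in mice. Members were chosen by symbol alone. These were Ndufa, Ndufb, Ndufc, Ndufs and Ndufv genes followed by a number, and Cox4 to Cox8 genes with a letter a to c. Uqcr and Atp5 genes, Cyc1, Sdha to Sdhd and Usmg5 were also taken. Assembly factors named Ndufaf, pseudogenes and antisense symbols were left out. Atp5s and Atp5sl came in by name, though neither is a structural subunit of ATP synthase. The rule took 84 of the 35976 listed symbols, of which 37 belong by name to complex I, 4 to complex II, 9 to complex III, 16 to complex IV and 18 to ATP synthase (complex V). Another 25 symbols of similar name stayed outside the rule, Cox4i1 and Ndufab1 among them. The shDap5 cells carried a hairpin against Dap5 (gene symbol Eif4g2) and the NSi cells a non-silencing hairpin, both inducible and both in cells given 2 µg/ml doxycycline for 6 days. PolyA RNA was read from unfractionated lysate (input), light polysomes and heavy polysomes, with 3 libraries in each of the 6 groups. Cells without doxycycline were not analysed here, so the drug is shared by both arms, and each arm is 1 hairpin line. The labels do not say that replicate numbers are separate cultures, so p-values rest on differences among libraries that could be technical repeats.

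The respiratory chain moves electrons from NADH (complex I) and succinate (complex II) through complexes III and IV to oxygen, and ATP synthase uses the proton gradient made on the way. Nuclear genes encode most subunits, and a small mitochondrial genome encodes the rest, apart from complex II, which is wholly nuclear-encoded. Most of the nuclear-encoded subunits are small proteins read from short messages, and a short reading frame has room for fewer ribosomes than a long one. Dap5 is a relative of the translation factor eIF4G that lacks the part that binds the cap-binding protein eIF4E, and it takes part in cap-independent translation.

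Library totals ran from 30385863 to 71331978 counts, at which a count of 3 equals 0.0421 to 0.0987 CPM (counts scaled to the library's total). The levels that follow are CPM scaled further by TMM (trimmed mean of M-values). The hairpin's target was lower in shDap5 cells, with Eif4g2 at 286 ± 68.5 CPM on shDap5 heavy polysomes and 782 ± 108 CPM on NSi heavy polysomes (SD, n = 3 each). In the input it averaged 534 ± 173 CPM in shDap5 cells and 803 ± 46.3 CPM in NSi cells, and all 3 shDap5 libraries lay below all 3 NSi libraries. The log2 difference was −1.45 on heavy polysomes (edgeR adjusted p = 0.00349) and −1.60 on light polysomes (adjusted p = 0.00204). In the input it was −0.59 and missed the threshold (adjusted p = 0.202). All 6 epithelial markers, Krt8, Krt18, Epcam, Cdh1, Krt7 and Cldn4, were present in every group, and their summed level was higher in shDap5 input (4200 to 4756 CPM) than in NSi input (2900 to 3240 CPM). Leukocyte, endothelial and red cell markers each stayed under 1 CPM. Macrophage markers summed to 20.1 to 60.7 CPM in shDap5 input and 42.1 to 47.1 CPM in NSi input, nearly all from Cd68 and Csf1r, while Adgre1 was near 0. Fibroblast markers summed to 23.4 to 30.6 CPM in shDap5 input and 30.9 to 40.5 CPM in NSi input, nearly all from Pdgfra, with both collagen markers under 1 CPM there. Adipocyte markers were lower in shDap5 input, at 0.404 to 0.818 CPM in shDap5 libraries and 2.42 to 2.93 CPM in NSi libraries, mostly from Fabp4. Muscle markers reached 6.03 CPM in 1 NSi light library and stayed under 1 CPM in the input and on heavy polysomes. The part of these markers in the results was not tested. In bulk RNA, fewer cells of a kind and less RNA per cell cannot be told apart. The shDap5 input library 2 lay farther from its group than any other input library, with a median absolute log2 difference of 0.26 from the other two, against 0.16 and 0.18 for those and 0.0810 to 0.0988 for the NSi input libraries.

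The module was well expressed in these cells. Its 84 genes took 0.984% to 1.03% of all counts in the shDap5 input libraries and 0.965% to 1.03% in the NSi input libraries. Per kb of transcript, the median member stood at 68.2 CPM per kb in shDap5 input and 66.4 CPM per kb in NSi input, and 24 members reached 100 CPM per kb in NSi input. Atp5b, the catalytic beta subunit of ATP synthase, was the highest on that scale, at 1065 ± 112 CPM per kb in shDap5 input and 978 ± 35.9 CPM per kb in NSi input (SD, n = 3 each). Ndufa4, named for complex I although its protein is found in complex IV, came next at 390 ± 32.5 and 367 ± 25.4 CPM per kb in shDap5 and NSi input. Ndufa4, Cox8a (365 ± 15 CPM per kb in NSi input) and Cox6a1 (352 ± 21.2 CPM per kb in NSi input) did not differ from one another beyond their spread, whereas Atp5b stood clear of all of them.

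The tissue-restricted isoforms were near absent. Cox8b, the muscle form of subunit 8, and Cox8c, its testis form, had 0 counts in all 18 libraries, and their common counterpart Cox8a averaged 186 CPM in shDap5 input and 201 CPM in NSi input. Cox6b2 and Cox7b2, both testis forms, reached at most 1 and 3 counts in a library, and Ndufa4l2, which hypoxia induces in many cells, at most 5. These 5 genes did not pass the low-count filter, and the other 79 members were tested. The muscle forms Cox7a1 and Cox6a2 passed it at very low levels. Cox6a2 had 1, 54 and 1 counts in the shDap5 input libraries against 25, 34 and 34 counts in the NSi input libraries. The outlying shDap5 input library 2 thus held nearly all of that group's Cox6a2 counts, and without that library Cox6a2 was called lower in shDap5 input (log2 difference −4.73, edgeR adjusted p = 0.000291). On heavy polysomes Cox6a2 had 35, 37 and 40 counts in shDap5 libraries and 15, 13 and 18 counts in NSi libraries, so the groups did not overlap there, in the other direction.

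**Figure D1:**
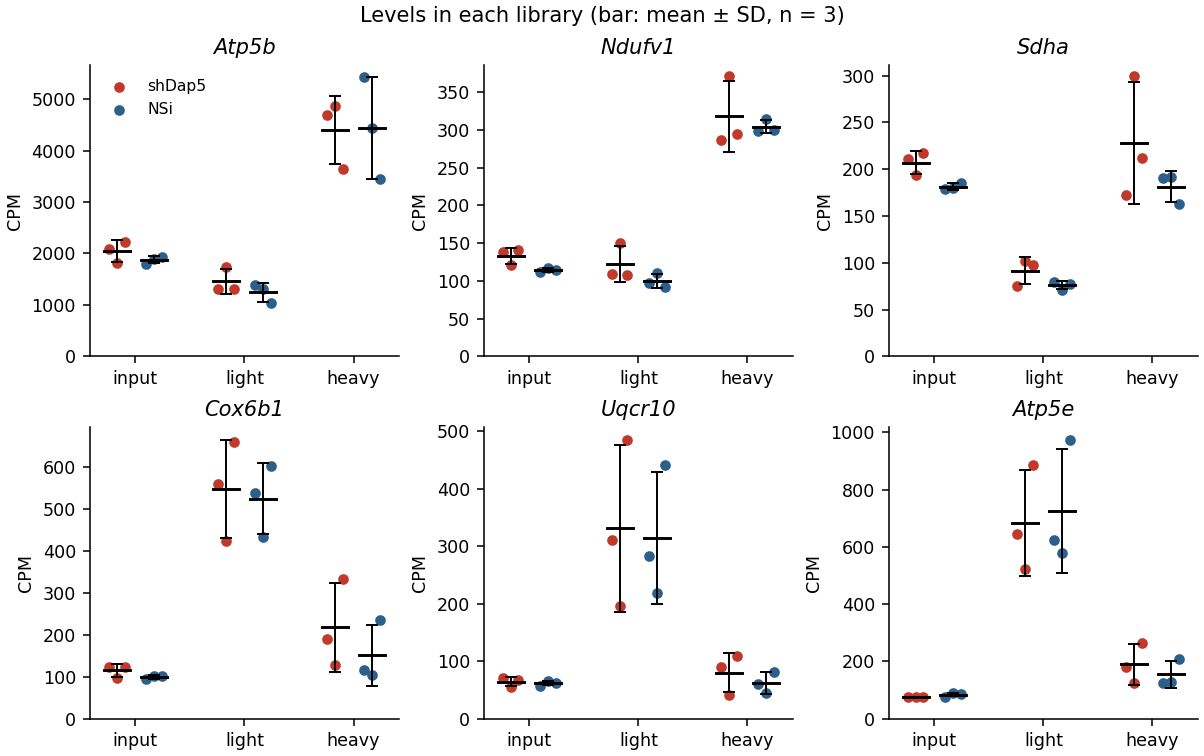
Levels of 6 members in every library, in CPM scaled by TMM (trimmed mean of M-values), by fraction, with shDap5 libraries in red and NSi libraries in blue. Bars give the mean and SD of 3 libraries. Atp5b, Ndufv1 and Sdha are higher on heavy than on light polysomes in both arms, Cox6b1, Uqcr10 and Atp5e are lower there, and in most panels the 2 arms overlap within a fraction.

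Whether Dap5 depletion altered the messages of the respiratory chain was asked in each fraction, by comparing shDap5 with NSi cells. None of the 79 members passed edgeR's quasi-likelihood test (Benjamini-Hochberg adjusted p under 0.05 over 15072 genes) in the input, on light polysomes or on heavy polysomes. Over all genes tested, 6.95% passed in the input, 3.47% on light polysomes and 3.95% on heavy polysomes. At an unadjusted p under 0.05 there were 0, 3 and 7 members in the input, light and heavy fractions, against 19.5%, 16.1% and 17.2% of all genes. DESeq2 also called 0 members in each fraction, with 1, 6 and 8 at an unadjusted p under 0.05. Without the shDap5 libraries of number 2, edgeR called 4 members higher on heavy polysomes (Cox7a1, Cox7b, Ndufb3 and Uqcr11) and Cox6a2 lower in the input. The share of all genes is not given for these DESeq2 counts or for that fit. Whether they are particular to the members was not tested. A p that misses the threshold does not show equality. The 95% intervals of the log2 difference lay within −1 and 1 for 76 members in the input, 75 on light polysomes and 65 on heavy polysomes.

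In the input the median member differed by 0.06 (log2 shDap5 over NSi), close to the 0.05 of all genes, and 49 of 79 members lay above 0. Groups did not overlap for 12 members with shDap5 higher, where 20.2% of all genes did so, and for 8 with shDap5 lower, where 16.9% of all genes did so. Ndufc2, an accessory subunit of the membrane arm of complex I, had 44.3, 34.1 and 42.2 CPM in shDap5 input and 29.6, 30.8 and 32.2 CPM in NSi input. All its shDap5 libraries lay above all its NSi libraries, yet the difference of 0.38 ± 0.21 (log2, SE) missed the threshold, with an adjusted p of 0.333. Atp5a1, the alpha subunit of ATP synthase, had 771, 614 and 825 CPM in shDap5 input and 595, 563 and 624 CPM in NSi input, so that shDap5 library 2 fell inside the NSi range. On light polysomes the median was −0.01 for the members and −0.01 for all genes. Groups did not overlap there for 1 member with shDap5 higher (10.2% of all genes) and 2 with shDap5 lower (9.64% of all genes). Uqcrc2, a core protein of complex III, had 134, 156 and 200 CPM on shDap5 light polysomes and 140, 99.9 and 114 CPM on NSi light polysomes, with overlapping groups and the smallest p of any member there (log2 difference 0.47 ± 0.16, adjusted p = 0.131 in edgeR). Another gene holds 24.8% of the 50-base windows of the Uqcrc2 transcript, so its counts may be split with that gene.

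On heavy polysomes 62 of the 79 members lay above 0, and their median was 0.19 against 0.01 for all genes. By complex, the median was 0.34 for complex III, 0.25 for complex IV and 0.19 for ATP synthase, and it was 0.23 for the accessory subunits of complex I, 0.05 for its 7 core subunits and −0.10 for the 4 subunits of complex II. The median of all 79 members rested on single replicate numbers, being 0.02 without the shDap5 libraries of number 3 and 0.35 without those of number 2, or 0.08 without the NSi libraries of number 2 and 0.32 without those of number 3. Cox7b, a small subunit of complex IV, had 188, 107 and 243 CPM on shDap5 heavy polysomes and 110, 79.3 and 161 CPM on NSi heavy polysomes. Uqcr11, the smallest complex III subunit listed, had 136, 73.7 and 183 CPM on shDap5 heavy polysomes and 76.4, 55.4 and 119 CPM on NSi heavy polysomes. For both genes the groups overlapped, while within each replicate number the shDap5 library was the higher. Their log2 differences were 0.62 ± 0.26 for Cox7b and 0.65 ± 0.27 for Uqcr11, with adjusted p of 0.226 and 0.224. Groups did not overlap for 4 members with shDap5 higher (7.6% of all genes) and 1 with shDap5 lower (8.11% of all genes).

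**Figure D2:**
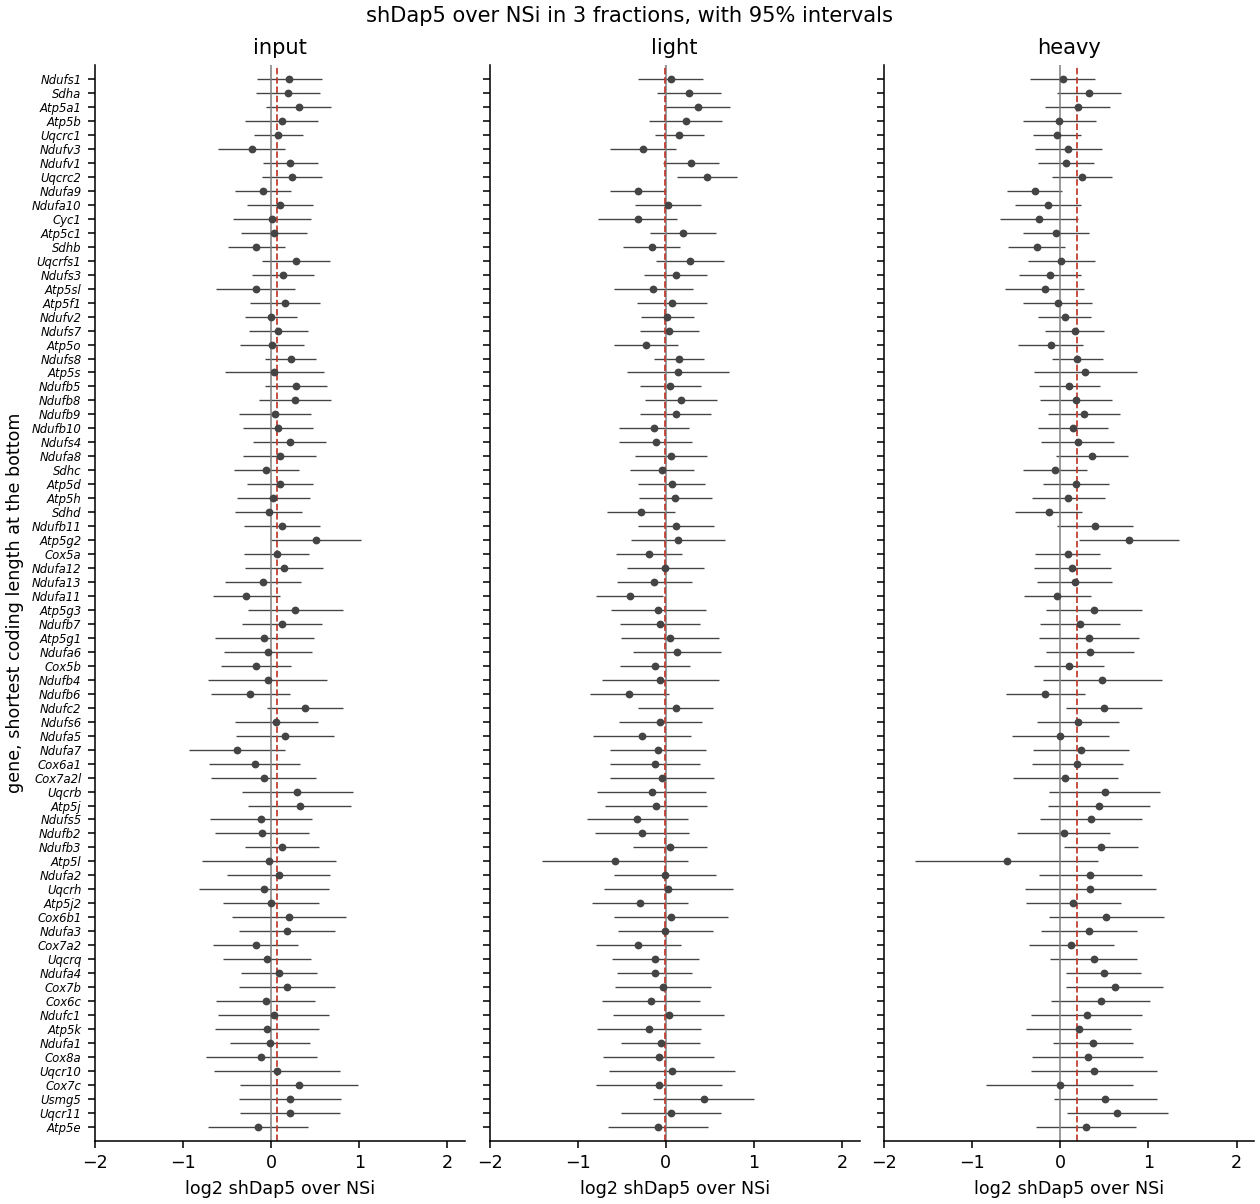
Log2 difference of shDap5 over NSi for 76 members in the input, light and heavy fractions, with 95% intervals from edgeR. Genes are ordered by coding length with the shortest at the bottom, and the dashed red line is the median of all 79 tested members. Cox6a2 and Cox7a1, whose intervals run far beyond the axis, are left out, and 1 member is not shown. The points of short genes lie to the right of 0 in the heavy panel, at a median of 0.37 below 300 nt, and the intervals of most still cross 0.

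Libraries that share a replicate number deviated together in both arms, so the comparison was also fitted with that number as a block within each fraction. With the block, 15 members were called higher on shDap5 heavy polysomes and 0 lower, where 10.3% of all genes were called higher and 8.01% lower. They were the complex I subunits Ndufa1, Ndufa8, Ndufb3, Ndufb11 and Ndufc2, Ndufa4, the complex III subunits Uqcrb and Uqcr11, the complex IV subunits Cox6b1, Cox6c, Cox7b and Cox7a1, and the ATP synthase subunits Atp5g2, Atp5j and Usmg5. The 15 include no subunit of complex II and no core subunit of complex I. Uqcr11 had a log2 difference of 0.62 ± 0.11 in that fit (adjusted p = 0.00154), Cox7b one of 0.60 ± 0.12 (adjusted p = 0.00300) and Ndufc2 one of 0.51 ± 0.11 (adjusted p = 0.00503). The number of calls depended on single numbers: it was 5 without both libraries of number 1 (11.3% of all genes), 20 without number 2 (14% of all genes) and 2 without number 3 (5.35% of all genes). Cox7b and Uqcr11 were called in all 3 of these fits. Cox7a1 rests on 8, 3 and 17 counts in shDap5 libraries and 0, 1 and 3 counts in NSi libraries. The pooled counts give a ratio of 5.38, with an exact counting interval of 1.88 to 21.1. That interval leaves out the spread between libraries, so it is too narrow for a difference between the arms. Without the block, edgeR's adjusted p for Cox7a1 was 0.0695. Every 50-base window of Atp5g2 occurs in another gene, so its counts cannot be assigned to it alone. Other genes also hold 43.4% of the windows of Uqcrb, 40.6% of those of Usmg5 and 21.1% of those of Cox6c. The shares were 17.5% for Ndufb11, 16.3% for Atp5j and 10.9% for Uqcr11, so counts of these genes may be split as well.

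The same block called 1 member higher and 1 lower in the input (11.6% and 10.5% of all genes), Ndufc2 at 0.37 ± 0.11 and Ndufa7 at −0.39 ± 0.10. Ndufa7, a complex I accessory subunit, was thus lower in shDap5 input, with an adjusted p of 0.0138, and without number 2 the same fit called 13 members, 11 of them higher (28.2% of all genes in either direction). Without number 1 it called 1 member in the input and without number 3 it called 0 (9.85% and 7.29% of all genes). On light polysomes it called 3 higher and 2 lower (8.63% and 7.5% of all genes). That count was 8 without number 1, 2 without number 2 and 0 without number 3 (11.8%, 9.78% and 4.68% of all genes). Uqcrc2 and Usmg5 were among the higher, and the accessory subunits Ndufa11 and Ndufb6 were lower. Other genes hold 40.6% of the 50-base windows of Usmg5, 34.1% of those of Ndufb6 and 12.5% of those of Ndufa11. Ndufa11 had 162, 146 and 118 CPM on shDap5 light polysomes and 192, 190 and 182 CPM on NSi light polysomes. Its groups did not overlap, and its log2 difference was −0.42 ± 0.10 with the block (adjusted p = 0.0116). A block by number over all fractions at once called 0 members in every fraction.

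**Figure D3:**
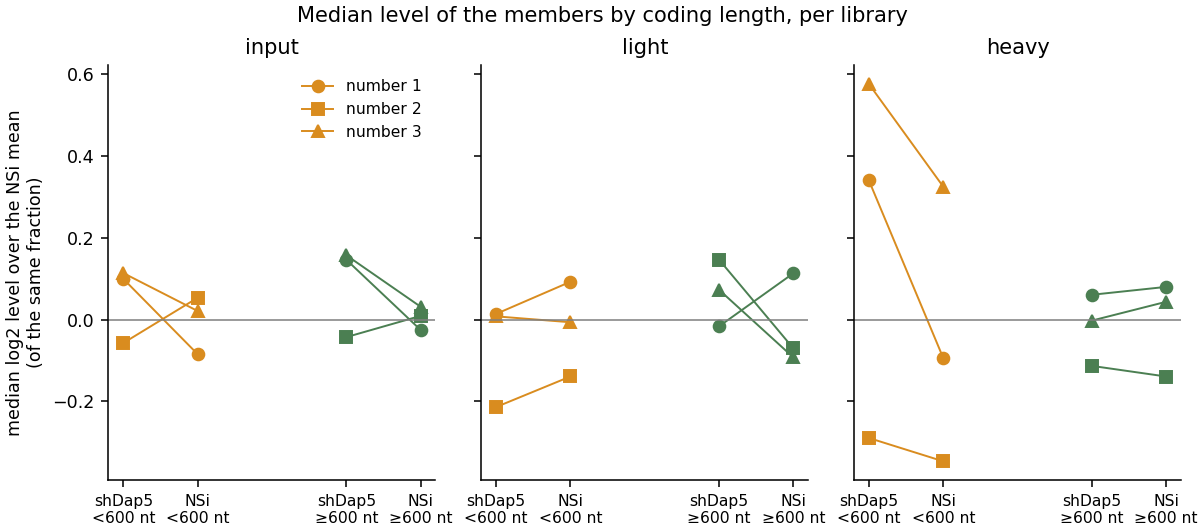
Median log2 level of the tested members in every library over the NSi mean of the same fraction, for members with a coding length under 600 nt (orange) and of 600 nt or more (green), with shDap5 left of NSi and lines joining libraries of one replicate number. In heavy polysomes the short-frame medians are 0.34, −0.29 and 0.57 in shDap5 libraries 1, 2 and 3 and −0.09, −0.35 and 0.32 in the NSi libraries, so each line falls towards NSi while the numbers differ by more than the arms.

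The difference on heavy polysomes followed coding length and was shared by genes outside the module. Members with frames under 300 nt had a median log2 difference (shDap5 over NSi, heavy) of 0.37, and 20 of the 21 lay above 0. Over all 257 tested genes of that length the median was 0.30, and 209 lay above 0. Members of 300 to 599 nt had a median of 0.19, the same as the 0.19 of all 1408 genes in that range, and the 14 members of at least 600 but under 1200 nt had one of −0.08. When the change from light to heavy was compared between the arms, no member and no gene of 15072 was called by edgeR, with 2 members and 1.2% of genes at an unadjusted p under 0.05, and DESeq2 called 0 members as well. The median of that comparison was 0.27 for the members and 0.01 for all genes, and for the members it was 0.13 without NSi number 2. With number as a block within fraction, 0 members were called and 22 had an unadjusted p under 0.05, all of them higher, where 5.73% of all genes had such a p. Relative to the input, the arms differed by a median of 0.14 on heavy polysomes and −0.07 on light polysomes, against −0.02 and −0.04 for all genes. There edgeR and DESeq2 called 0 members, with 0 at an unadjusted p under 0.05, where edgeR had 1.96% of all genes on heavy and 2.12% on light polysomes at that p. With the block these were 12 members on heavy and 2 on light polysomes (10.4% and 10.8% of all genes), and 0 were called. Without NSi number 2 the heavy median was −0.02. Without shDap5 input library 2, Cox6a2 was called in both, at 5.70 on heavy and 5.12 on light polysomes relative to the input.

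**Figure D4:**
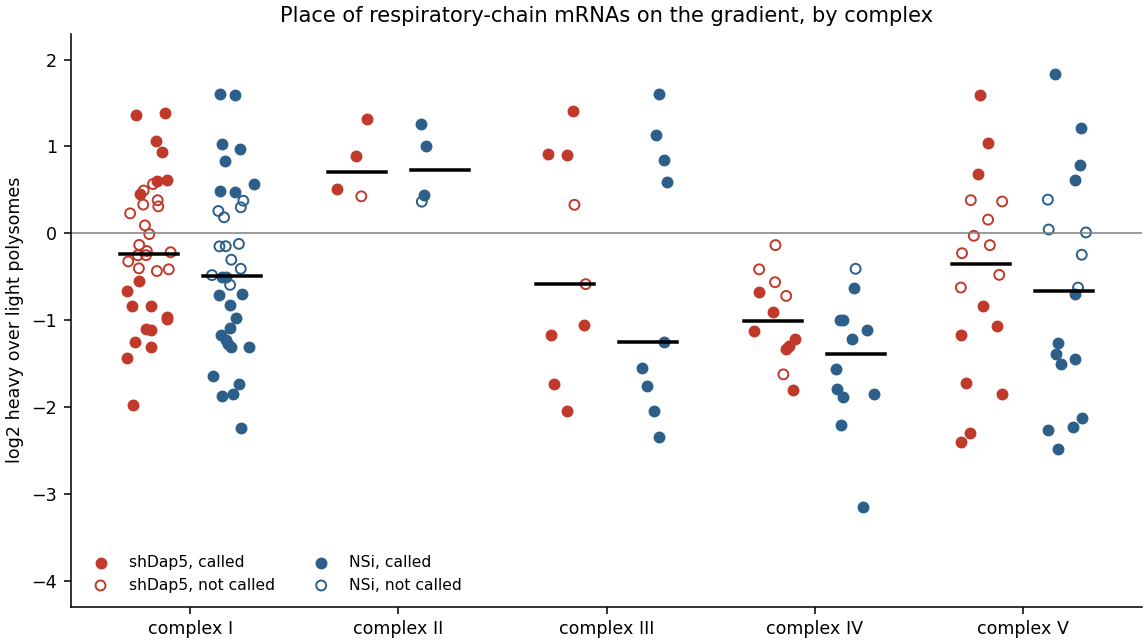
Log2 level on heavy over light polysomes for each tested member, by complex, with shDap5 (red) left of NSi (blue). Filled points passed edgeR's test at an adjusted p of 0.05, open points did not, and black bars are medians. All 4 complex II genes lie above 0 and all 12 complex IV genes below 0 in both arms.

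The largest differences lay between the fractions. On heavy over light polysomes, 16 members were called higher and 30 lower in shDap5 cells (24.3% and 20.2% of all genes), and 19 higher and 42 lower in NSi cells (27% and 25.6% of all genes). The median was −0.40 in shDap5 cells and −0.63 in NSi cells, against 0.01 and −0.03 for all genes. In both arms 15 members were called higher and 30 lower, and 0 were called in opposite directions. Scaling by library totals alone put the median of all genes at −0.18 in shDap5 cells and −0.25 in NSi cells, and then split the members' calls 13 higher to 38 lower in shDap5 cells and 13 higher to 49 lower in NSi cells. Over all genes that scaling called 2475 higher and 3934 lower in shDap5 cells, and 2937 higher and 4865 lower in NSi cells.

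Complexes I, III and V were split along the gradient. The tested members of complex II all lay above 0, and the complex IV members kept by the symbol rule all lay below 0. In complex I, 6 of the 7 core subunits were called higher on heavy than on light polysomes in each arm, with medians of 0.61 in shDap5 cells and 0.83 in NSi cells. Ndufv1, the subunit that binds NADH, had 287, 371 and 294 CPM on shDap5 heavy polysomes and 109, 150 and 107 CPM on shDap5 light polysomes. In NSi cells it had 298, 315 and 300 CPM on heavy polysomes and 97.5, 110 and 91.4 CPM on light polysomes. Heavy and light libraries did not overlap in either arm, and the log2 difference was 1.38 in shDap5 cells and 1.61 ± 0.15 in NSi cells (adjusted p = 4.65e-07). Under library totals 4 of the 7 core subunits were called higher in each arm, and without shDap5 number 1 there were 4 in shDap5 cells. Ndufs7, a core subunit, lost its call under library totals in both arms (0.40 in shDap5 cells and 0.26 in NSi cells), and without shDap5 number 3 (0.35) or NSi number 3 (0.32). The core subunit outside the calls, Ndufv2, was at 0.33 and 0.30 in shDap5 and NSi cells. The 29 accessory subunits tested include Ndufa4, which is counted by name in complex I throughout. Of these 29, 1 was called higher and 12 lower in shDap5 cells, and 2 higher and 17 lower in NSi cells. Ndufc1 lay lowest among them, at −1.98 in shDap5 cells and −2.24 ± 0.31 in NSi cells. Ndufa9, an accessory subunit near the core, was at 1.06 and 1.03 and was called higher in both.

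Complex II, which also runs in the citrate cycle, lay above 0 with all 4 genes, and 3 were called higher in each arm. Sdha, its flavoprotein, had 172, 300 and 212 CPM on shDap5 heavy polysomes and 74.7, 102 and 98.2 CPM on shDap5 light polysomes. In NSi cells Sdha had 190, 191 and 163 CPM on heavy polysomes and 79.6, 71.1 and 77.9 CPM on light polysomes, a log2 difference of 1.25 ± 0.18 (adjusted p = 1.75e-05). Sdhb, the iron-sulfur subunit, was at 0.89 in shDap5 cells and 1.01 in NSi cells, and the membrane anchors Sdhc and Sdhd were between 0.36 and 0.51. The calls of the anchors were unsteady. Sdhd, called in shDap5 cells, was at 0.35 (adjusted p = 0.240) without shDap5 number 3 and at 0.31 under library totals (adjusted p = 0.192). Sdhc, called in NSi cells, was at 0.18 (adjusted p = 0.482) without NSi number 3 and at 0.22 under library totals (adjusted p = 0.334). Both also missed the threshold with RLE scaling and with only the libraries compared, so 2 of the 4 genes were called in each arm there.

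Complex III was split in NSi cells, where 4 subunits were called higher and 5 lower. Leaving out an NSi number left 3, 3 and 2 called higher (without 1, 2 and 3), and 5 lower each time. The core protein Uqcrc1, at 1.41 in shDap5 cells and 1.60 ± 0.13 in NSi cells, and Cyc1 (cytochrome c1), at 0.92 and 0.84, were called higher in both arms. The Rieske iron-sulfur protein gene Uqcrfs1 was called higher in NSi cells (0.59) and was at 0.33 in shDap5 cells, and the difference between the arms was not called. Its NSi call was lost without any 1 NSi number (adjusted p from 0.0563 to 0.0604), and that of Cyc1 without number 3 (0.59, adjusted p = 0.0522). The small subunits Uqcr10, Uqcr11, Uqcrh and Uqcrq were called lower in both. Uqcr10 had 89.7, 41.6 and 109 CPM on shDap5 heavy polysomes and 311, 197 and 485 CPM on shDap5 light polysomes. In NSi cells it had 59.5, 43.9 and 81.2 CPM on heavy polysomes and 284, 218 and 441 CPM on light polysomes, and again no heavy library reached the light range.

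Complex IV had no tested member above 0, with 7 of 12 called lower in shDap5 cells and 11 of 12 in NSi cells. Without shDap5 number 1 the shDap5 count was 4. Cox6b1, a subunit on the outer face of the complex, had 190, 128 and 333 CPM on shDap5 heavy polysomes and 559, 424 and 659 CPM on shDap5 light polysomes. Its NSi values were 116, 103 and 235 CPM on heavy polysomes and 537, 434 and 603 CPM on light polysomes. Cox5a, the member least far below 0, was at −0.14 in shDap5 cells and −0.41 in NSi cells and was called in neither arm. Cox4i1, a longer subunit outside the symbol rule, averaged 1383 and 1312 CPM on heavy and light polysomes of shDap5 cells and 1198 and 1069 CPM on those of NSi cells.

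ATP synthase spanned the widest range of the 5 complexes in both arms. Atp5b had 4690, 4874 and 3638 CPM on shDap5 heavy polysomes and 1318, 1744 and 1307 CPM on shDap5 light polysomes. In NSi cells it had 5437, 4446 and 3445 CPM on heavy polysomes and 1388, 1313 and 1032 CPM on light polysomes, a log2 difference of 1.84 ± 0.20 (adjusted p = 1.79e-06). Atp5e, the small epsilon subunit of the same F1 head, had 178, 124 and 265 CPM on shDap5 heavy polysomes and 644, 522 and 885 CPM on shDap5 light polysomes. Its NSi values were 126, 128 and 209 CPM on heavy polysomes and 623, 580 and 972 CPM on light polysomes, a log2 difference of −2.23 ± 0.28 (adjusted p = 6.37e-06). The beta and epsilon subunits of one head thus lay near opposite ends of the module. Usmg5, which helps ATP synthase form dimers, was at −2.40 in shDap5 cells and −2.48 ± 0.29 in NSi cells, and Atp5k, subunit e, at −1.73 and −2.13 ± 0.29. Other genes hold 40.6% of the 50-base windows of Usmg5 and 1.24% of those of Atp5k. Of the 3 genes for the ring-forming subunit c, Atp5g3 averaged 494 and 579 CPM on heavy and light polysomes of shDap5 cells, and Atp5g1 averaged 4.94 and 11.1 CPM there. The 3 genes encode the same mature protein behind different import sequences. Atp5g1 and Atp5g3 were both called lower on heavy than on light polysomes in NSi cells, at −1.45 and −0.70. Atp5g3 lost that call without NSi number 1 (−0.43, adjusted p = 0.321) and without NSi number 2 (−0.65, adjusted p = 0.141).

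Coding length ordered the members along the gradient. Across the 79 genes, log2 coding length and log2 heavy over light had a Pearson r of 0.86 and a Spearman rho of 0.88 in shDap5 cells, and of 0.88 and 0.90 in NSi cells, as a description across genes, which are not independent replicates and share the same libraries. Over all 12894 genes with a coding length r was 0.39 in shDap5 cells and 0.42 in NSi cells. Members were short, with a median of 423 nt against 1386 nt for all genes tested. Under 300 nt, 18 of 21 members were called lower in shDap5 cells and 21 of 21 in NSi cells, against 80.9% and 87.2% of all genes of that length. Of the 9 members of 1200 nt or more, 8 were called higher in each arm, against 35.1% of all such genes in shDap5 cells and 39.3% in NSi cells. The 14 members of at least 600 but under 1200 nt had a median of 0.49 in shDap5 cells and 0.58 in NSi cells, where all genes of that length were at 0.08 and 0.06. Leaving out the 20 tested members that share at least 20% of their 50-base windows with another gene gave an r of 0.89 in shDap5 cells and 0.90 in NSi cells over the other 59.

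**Figure D5:**
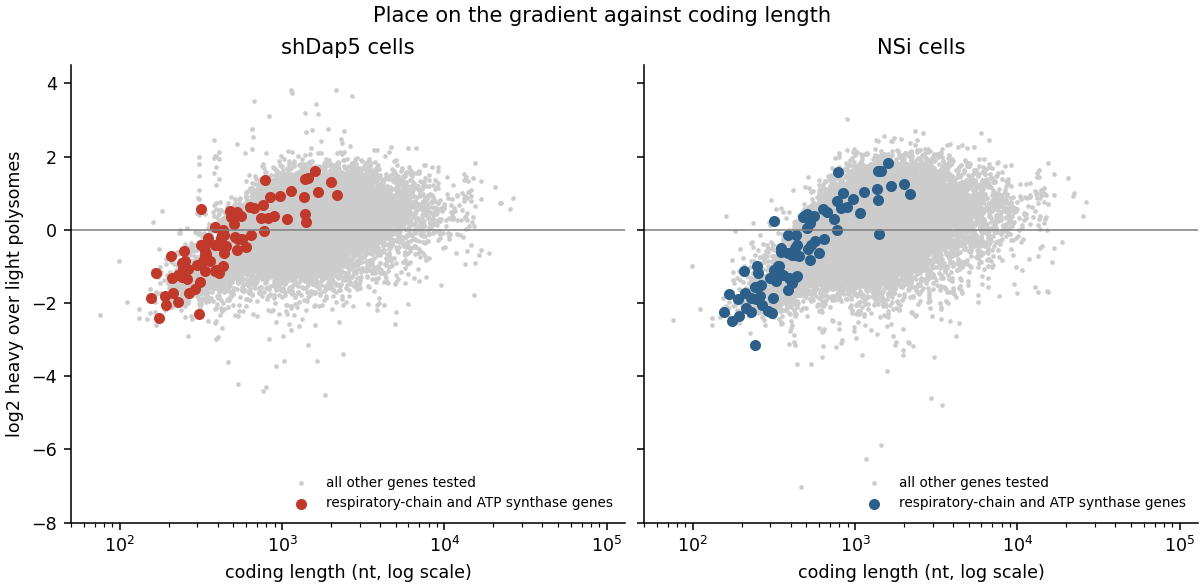
Log2 level on heavy over light polysomes against coding length (log axis) in shDap5 cells (left) and NSi cells (right), with members in colour and all other tested genes with a coding length in grey. Members rise from about −2 at the shortest frames to above 1 at the longest in both panels, inside the cloud of all genes, with r of 0.86 and 0.88 across the members.

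The complete reading frames of Atp5e and Uqcr10, both from the low end, are printed because their size can be read off directly, from GENCODE vM21 transcripts on GRCm38. Atp5e lies on chromosome 2 and Uqcr10 on chromosome 11, and capitals mark the start and stop codons. The frames hold 159 and 195 bases with the stop codon, and the Atp5e frame is the shortest of all members, while the longest, Ndufs1, has 2181 nt.
Atp5e: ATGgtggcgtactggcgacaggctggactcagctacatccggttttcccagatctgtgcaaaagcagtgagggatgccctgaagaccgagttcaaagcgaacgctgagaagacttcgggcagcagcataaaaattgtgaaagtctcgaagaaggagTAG
Uqcr10: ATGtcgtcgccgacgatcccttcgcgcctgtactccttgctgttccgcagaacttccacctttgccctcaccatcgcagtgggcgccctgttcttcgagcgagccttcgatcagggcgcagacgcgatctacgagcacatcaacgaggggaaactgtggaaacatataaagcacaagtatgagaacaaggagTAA

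Against the input, most of the module was enriched on both polysome fractions. On heavy polysomes 63 members were called higher and 5 lower than in the input in shDap5 cells (26.7% and 21.2% of all genes), and 54 higher and 5 lower in NSi cells (26.4% and 20.2%). On light polysomes 64 were called higher and 8 lower than in the input in shDap5 cells (26.4% and 26.8%), and 64 higher and 9 lower in NSi cells (26.7% and 24.7%). The median log2 enrichment was 1.16 on heavy and 1.65 on light polysomes in shDap5 cells, and 1.04 and 1.73 in NSi cells. The members' summed share of all unscaled counts showed the same order in shDap5 cells. It was 1.53% to 1.96% on heavy and 1.97% to 2.00% on light polysomes, against 0.984% to 1.03% in the input. On TMM-scaled CPM heavy was not below light in that arm, with mean sums of 20172.5 and 20045.6 CPM. In NSi cells these sums were 18696.5 CPM on heavy and 20242.1 CPM on light polysomes. Scaling by library totals alone put the median of all genes for heavy over input at −0.33 in shDap5 cells and −0.41 in NSi cells, and the members' medians became 0.79 and 0.60. Light over input fell with coding length over all 12894 genes (Pearson r −0.56 in shDap5 cells and −0.61 in NSi cells). Over the members r was −0.63 and −0.68. For heavy over input r was −0.26 and −0.21 over all genes, and 0.10 and 0.26 over the members. The members are short, and genes of like length were not set beside these counts.

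On light polysomes 8 members were lower than in the input in both arms. They were Ndufs1, Atp5s, Cox7c, Atp5l, Atp5g2, Sdha, Atp5a1 and Atp5b, with Uqcrc1 called lower in NSi cells as well (−0.33). Sdha was at −1.18 in shDap5 cells and −1.25 in NSi cells, and Atp5b at −0.49 and −0.59. On heavy polysomes 5 were lower than in the input in both arms: Ndufs1, Atp5s, Cox7c, Atp5l and Atp5g2. Ndufs1, the largest core subunit of complex I, which carries iron-sulfur clusters, had 61.4, 81.3 and 63.9 CPM on shDap5 heavy polysomes and 146, 116 and 152 CPM in shDap5 input. In NSi cells it had 82.6, 68.5 and 51.6 CPM on heavy polysomes and 118, 121 and 121 CPM in the input. Another gene shares 5.93% of its windows. Atp5s, which is named for the synthase but encodes a coupling factor outside its main structure, shares no window and averaged 5.44 and 12.4 CPM on shDap5 heavy polysomes and in shDap5 input. In Cox7c, Atp5l and Atp5g2 other genes share 53.0%, 84.8% and 100% of the windows. Those 3 averaged 0.418, 0.233 and 1.73 CPM on shDap5 heavy polysomes, and how much of their signal is their own was not tested.

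Related genes gave a setting for these values, from lists drawn up by function. On heavy over light polysomes, 24.3% of all genes were called higher and 20.2% lower in shDap5 cells, and 27% and 25.6% in NSi cells. The 13 citrate cycle enzymes sat with complex II, with 12 of 13 called higher on heavy than on light polysomes in shDap5 cells and 13 of 13 in NSi cells, at medians of 0.87 and 0.94. The 13 complex I assembly factors had 7 called higher and 3 lower in each arm. Of 20 tested complex IV assembly factors 4 were called higher and 9 lower in shDap5 cells, and 5 higher and 12 lower in NSi cells. Of 7 mitochondrially encoded subunits tested, 2 were called lower on heavy than on light polysomes in shDap5 cells and 5 in NSi cells, and 0 were called higher. Their summed level varied widely between libraries of one group, at 27079, 9274 and 16111 CPM on shDap5 light polysomes and 35455, 14610 and 37470 CPM on NSi light polysomes. Between the arms, 1 gene of these lists was called, Ppargc1a, the coactivator PGC-1alpha that drives respiratory gene transcription in many tissues. It had 0.328, 1.36 and 0.404 CPM in shDap5 input and 6.93, 7.78 and 8.54 CPM in NSi input, with no overlap and a log2 difference of −3.47 ± 0.53 (edgeR adjusted p = 0.000547). It was also lower on shDap5 light polysomes (−2.89) and heavy polysomes (−2.50). The module's median in the same input libraries was 0.06, with 0 of 79 members called. Any link between Ppargc1a and the members was not tested. Nrf1, Gabpa and Tfam, a pair of activators of respiratory genes and the mitochondrial transcription factor, averaged 63.4, 80.8 and 58.9 CPM in shDap5 input and 51.8, 73.0 and 51.0 CPM in NSi input, and none was called.

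RefSeq start windows, 250 bases before to 50 after a gene's start on GRCm38.p6, were found for 70 of the 84 members. Shares of all genes in this paragraph are over the 27025 genes with such a window, not over the 15072 tested. They therefore include genes too low in these cells to be tested, and the tested genes alone were not searched apart. CCGGAAG, an ETS-family core searched on both strands, was in 24.3% of member windows and 9.93% of all genes. GCATGCGC, part of the NRF1 factor's site and likewise searched on both strands, was in 14.3% and 3.05%. ATGGCGGC, the core of the TISU element found just downstream of the start of some genes with very short leaders, was in 10% and 2.605% on either strand. On the sense strand after the start site it was in 6 members, or 8.57% against 1.10% of all genes. These 6 are printed with the core in capitals, because the core opens with an ATG close to the start site. The first base of the core is at position 20 in Ndufb5, 28 in Ndufs7, 30 in Atp5sl, 33 in Ndufa9, 37 in Ndufs6 and 39 in Ndufs4. In the order below the windows lie at chr3:32737072-32737099 (+), chr10:80249466-80249493 (+), chr7:25619433-25619460 (+), chr6:126849095-126849122 (−), chr13:73328433-73328456 (−) and chr13:114388045-114388066 (−), and the last 2 stop where the RefSeq window ends.
Ndufb5: cggtgtagccATGGCGGCcatgagcctg
Ndufs7: cgaggccaagATGGCGGCgctggcgggt
Atp5sl: acctggcaagATGGCGGCgcccagagcg
Ndufa9: gtgggagaagATGGCGGCcgccgtccgc
Ndufs6: caccggcaagATGGCGGCggtgct
Ndufs4: ctacaggaagATGGCGGCggtc

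None of these 6 was called between shDap5 and NSi in any fraction by edgeR or DESeq2, nor with the block within fraction over all libraries. Without number 2 that block called Ndufb5 higher in shDap5 input (log2 difference 0.41, edgeR adjusted p = 0.0429), where 28.2% of all genes were called in either direction. The log2 differences of the 6 on heavy polysomes (shDap5 over NSi) were 0.10 in Ndufb5, 0.16 in Ndufs7, −0.18 in Atp5sl, −0.29 in Ndufa9, 0.20 in Ndufs6 and 0.19 in Ndufs4. On heavy over light polysomes in NSi cells they ran from −0.48 in Ndufs6, the shortest of the 6 frames at 348 nt, to 1.03 in Ndufa9, the longest at 1131 nt. A match of letters is a description and not a test of the element.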

How the data were processed

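The authors deposited a table of read counts per gene symbol, made with Bowtie on mm9 per the submitters' processing notes. How reads were counted, by strand or where they matched several genes, is not given in the sources used here. Counts of 35976 symbols in 18 libraries were used as deposited, 27 of the symbols being date-like. Replicates of a group differed by more than sampling noise (lowest chi-square per degree of freedom 9.57).

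Genes with enough counts (filterByExpr, minimum 10, total 15) were fitted in edgeR 4.0.16 (R 4.3.3) with TMM scaling, 6 group means and robust quasi-likelihood tests over 15072 genes, with 12 residual degrees of freedom. Levels are TMM-scaled CPM. The test was checked on simulated data. Same-numbered libraries of both arms correlated in their deviations in each fraction (r from 0.15 to 0.83, 9429 genes), so their numbers were taken to pair the arms. Heavy and light libraries of one arm paired too (r from 0.50 to 0.76), and polysome and input libraries did not in every number (r from −0.33 to 0.48).

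Coding lengths and shared 50-base windows came from GENCODE vM21 (1 transcript per gene), since no mm9 annotation was used. Named members were those with the 6 smallest p in each arm comparison, the 5 highest and 5 lowest heavy over light in NSi cells above 5 CPM, complex II, defining subunits, isoform pairs and genes of the lists called between the arms. Others were named where a count needed it, after their values were seen. The members and the lists of related genes were chosen with earlier results of these data known. Alternatives were DESeq2 1.42.0, RLE scaling, library totals, no filter, only the libraries compared, replicate blocks and leaving out replicates. The values of 1 member are not reported here by name.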

Additional observations from a re-analysis of the deposited data

How the results depend on the processing

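The counts of members called between fractions stayed within 1.5 times their value under every alternative run. Leaving out one arm's replicate gave 32 to 49 calls for heavy over light in shDap5 cells and 48 to 66 in NSi cells, 58 to 71 and 51 to 61 for heavy over input, and 66 to 72 and 63 to 73 for light over input. Between the arms the count of 0 became 0 to 1 in the input, 0 on light polysomes and 0 to 4 on heavy polysomes, where the 4 called without shDap5 number 2 were Cox7a1, Cox7b, Ndufb3 and Uqcr11. For the change relative to input it became 0 to 1 on heavy and on light polysomes, the 1 being Cox6a2, which was also the 1 called in all 3 comparisons without shDap5 input library 2 alone. Fitting only the libraries compared called 2 members lower in the input, Ndufa7 and Ndufa11. The share of all genes is not given for that fit or for those that left out one arm's replicate. With replicate number as a block within fraction, 2 members were called in the input, 5 on light and 15 on heavy polysomes, and without number 1, 2 and 3 the counts were 1, 13 and 0 in the input, 8, 2 and 0 on light and 5, 20 and 2 on heavy polysomes. Blocks in the other comparisons changed no count by over 1.5 times. The within-fraction block in the comparisons of one fraction relative to another and the fits that left out a number under the block were chosen after seeing the data. In those relative comparisons the block called 0 members, with 22 at an unadjusted p under 0.05 for heavy relative to light (5.73% of all genes), 12 for heavy relative to input (10.4%) and 2 for light relative to input (10.8%). Causes were not tested. With 3 libraries a group small differences may have been missed, and counts of genes that share sequence may hold reads of their copies.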

Other observations

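Further lists of related genes were compared between heavy and light polysomes by edgeR. Of all genes, 24.3% were called higher and 20.2% lower in shDap5 cells, and 27% and 25.6% in NSi cells. Whether a list departs from these shares was not tested. Of 16 tested subunits and electron carriers outside the rule, 10 were called higher and 0 lower on heavy than on light polysomes in shDap5 cells, and 9 higher and 2 lower in NSi cells, with median log2 differences of 0.60 and 0.64. Of 12 tested regulators of respiratory genes, 4 were higher and 1 lower in shDap5 cells, and 6 higher and 1 lower in NSi cells. The 4 complex II assembly factors tested had 1 called lower in shDap5 cells and 4 in NSi cells, and 0 higher. All 4 subunits they help assemble lay above 0. The 6 complex III assembly factors had 2 called lower in shDap5 cells and 3 in NSi cells. Of the 4 assembly factors and inhibitor of ATP synthase, 0 were called in shDap5 cells (1 at an unadjusted p under 0.05), and 1 higher and 2 lower in NSi cells.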
